A study of Mus musculus with 12 samples.

Results

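The transcripts described here are 48 genes that mark blood cell lineages, read in cells that were sorted from mouse bone with blood cells gated out. The list was drawn up from textbook markers: Ptprc for all leukocytes, and 11 neutrophil, 10 macrophage, 7 erythroid, 7 B lineage, 6 T and NK cell and 6 platelet genes. Its members were chosen with earlier results of these data known. Of the 48 genes 45 had a probe set of their own among 19937 genes on the array, each by 1 probe set, while Ahsp, Gp1bb and Gp6 were not analysed here. The intensity filter kept 33 of the 45 for testing, among 12430 genes tested. The 12 members below it were Elane and Prtn3 of the neutrophil list, Epb42, Klf1 and Rhag of the erythroid list, Cd79a, Rag1 and Dntt of the B list, and Cd3g, Nkg7, Gzma and Ncr1 of the T and NK list. Their values are given below without a test. Of the 33 members tested, 8 exceeded the median of their array on osteoblast arrays only (Ltf, Lcn2, Csf1r, Adgre1, C1qb, C1qc, Wfdc17 and Vpreb3), so these passed the filter through the cell type in which they were high. For 2 of the 8, Wfdc17 and Vpreb3, these were arrays of tumor-free osteoblasts only.

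The mice were female NOD SCID animals, and cells were taken from their long bones. The scid mutation keeps antigen receptor genes from being assembled, so these mice lack mature B and T cells but keep neutrophils, macrophages, red cell precursors, megakaryocytes and early B cell precursors. Tumor-bearing mice had received 200000 MDA-MB231 scp1833 cells, a bone-seeking line derived from human breast cancer, by intracardiac injection, and lesions grew for about 2 weeks. Endothelial cells, which line vessels, were sorted as GFP-, TR119-, CD45-, SCA1+ and CD31+, and osteoblasts, which form bone, as GFP-, TR119-, CD45-, SCA1-, CD31- and CD51+. There were 3 arrays, labelled biological replicates, in each of 4 groups: endothelial cells of tumor-bearing mice, endothelial cells of tumor-free mice, osteoblasts of tumor-bearing mice and osteoblasts of tumor-free mice. No source used here says if an array pools several mice, and the p-values therefore rest on the spread between the arrays as they are.

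Values are log2 expression as deposited. Array medians lay between 5.21 and 5.41, so a value in that range was the middle of an array. The genes of the sort markers went with the labels. Pecam1, which encodes CD31, averaged 10.81 ± 0.12 and 10.76 ± 0.08 in endothelial cells of tumor-bearing and tumor-free mice, against 5.41 ± 0.43 and 5.69 ± 0.61 in the matching osteoblasts (SD, n = 3 each). Itgav, which encodes CD51, averaged 7.86 ± 0.03 and 7.27 ± 0.43 in those endothelial cells, against 8.91 ± 0.36 and 8.38 ± 0.43 in the osteoblasts. Ly6a, which encodes SCA1, was not analysed here.

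As background, blood cell lineages are told apart by genes of their specialised products. Neutrophils store antimicrobial proteins in granules, macrophages carry phagocytic receptors and lysosomal enzymes and in tissue make complement C1q, red cell precursors make heme and membrane proteins, and platelets inherit chemokines and adhesion receptors from megakaryocytes. In bone marrow, macrophages lie against osteoblasts and sinusoids, and megakaryocytes sit on the vessel wall. In bulk RNA of a sorted population, fewer cells of a type and less RNA per cell cannot be told apart.

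Macrophage genes set the osteoblast arrays apart from each other. On the endothelial arrays the mean of the 10 macrophage genes was 4.95, 5.14 and 4.83 in tumor-bearing mice, against 4.89, 4.89 and 4.72 in tumor-free mice. On the osteoblast arrays it was 7.15, 6.73 and 5.01 in tumor-bearing mice, against 5.32, 8.81 and 8.81 in tumor-free mice. Thus 4 of the 6 osteoblast arrays stood far above the endothelial arrays, and tumor-bearing replicate 3 and tumor-free replicate 1 stood near them. The group means were 4.97 ± 0.15 and 4.83 ± 0.09 in endothelial cells and 6.30 ± 1.13 and 7.65 ± 2.01 in osteoblasts of tumor-bearing and tumor-free mice (SD, n = 3 each), and the 2 osteoblast groups overlapped.

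**Figure D1:**
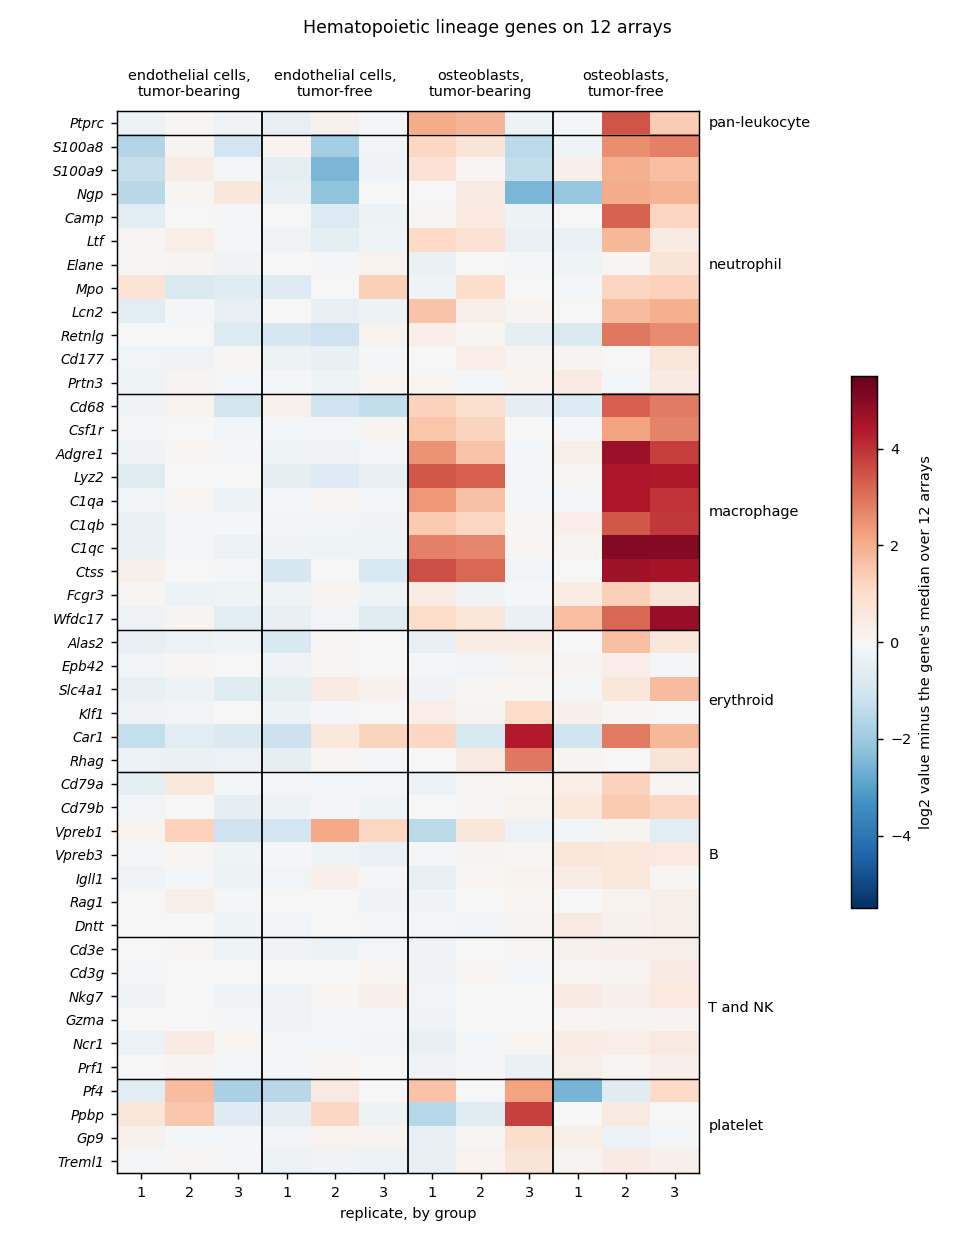
Each row is a measured hematopoietic gene and each column an array, and colour gives the log2 value minus that gene's median over the 12 arrays. The macrophage block is dark red on tumor-free osteoblast replicates 2 and 3, paler on tumor-bearing replicates 1 and 2, and near white for most genes on the remaining osteoblast arrays and the 6 endothelial arrays, while Car1, Rhag, Pf4 and Ppbp are red on tumor-bearing osteoblast replicate 3.

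Most genes of the macrophage list shared this order. C1qc, a chain of complement C1q, was at 4.86, 5.13 and 4.89 in tumor-bearing and at 5.03, 4.97 and 4.99 in tumor-free endothelial cells, and at 7.97, 7.88 and 5.30 in tumor-bearing and 5.36, 10.28 and 10.26 in tumor-free osteoblasts. Ctss, the lysosomal protease cathepsin S, was at 6.16, 5.89 and 5.74 (tumor-bearing) and 4.94, 5.83 and 5.01 (tumor-free) in endothelial cells, and at 9.39, 9.01 and 5.73 (tumor-bearing) and 5.84, 10.53 and 10.45 (tumor-free) in osteoblasts. Lyz2, the lysozyme of myeloid cells, was at 4.84, 5.56 and 5.49 (tumor-bearing) and 5.04, 4.82 and 5.06 (tumor-free) in endothelial cells, and at 8.95, 8.83 and 5.44 (tumor-bearing) and 5.57, 9.96 and 9.94 (tumor-free) in osteoblasts. In each of these the same 4 osteoblast arrays were high and the ranges of the 2 osteoblast groups overlapped.

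Adgre1, which encodes the surface receptor F4/80, was at 3.57, 3.79 and 3.66 (tumor-bearing) and 3.53, 3.57 and 3.63 (tumor-free) in endothelial cells, and at 6.22, 5.32 and 3.70 (tumor-bearing) and 4.08, 8.51 and 7.55 (tumor-free) in osteoblasts. C1qb, a further C1q chain, was at 4.40, 4.72 and 4.69 (tumor-bearing) and 4.63, 4.61 and 4.58 (tumor-free) in endothelial cells, and at 6.23, 5.92 and 4.83 (tumor-bearing) and 5.12, 8.21 and 8.67 (tumor-free) in osteoblasts. Fcgr3, a low affinity IgG receptor, was at 5.26, 4.89 and 4.95 (tumor-bearing) and 4.97, 5.35 and 4.94 (tumor-free) in endothelial cells, and at 5.59, 5.00 and 5.10 (tumor-bearing) and 5.58, 6.50 and 5.90 (tumor-free) in osteoblasts. Adgre1 and C1qb showed the same 4 high arrays, while Fcgr3 moved over a much smaller range.

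Wfdc17, a small secreted WAP domain protein of activated macrophages, was at 4.01, 4.35 and 3.55 (tumor-bearing) and 3.78, 4.02 and 3.50 (tumor-free) in endothelial cells, and at 5.18, 4.86 and 3.82 (tumor-bearing) and 5.84, 7.34 and 8.96 (tumor-free) in osteoblasts. It was the only macrophage gene of the 10 whose osteoblast groups did not overlap, since tumor-free replicate 1 also lay above every tumor-bearing array. Of all genes tested 12.3% were lower in tumor-bearing osteoblasts without overlap, so 1 of 10 is close to that share. Fcgr3 overlapped by a narrow margin, with 5.59 on the highest tumor-bearing array and 5.58 on the lowest tumor-free array. Cd68, a lysosomal glycoprotein, ranged from 5.83 to 10.46 over the 12 arrays, Csf1r, the M-CSF receptor, from 4.24 to 7.09, and C1qa, the remaining C1q chain, from 4.95 to 9.70, with the same 4 osteoblast arrays highest for each.

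Over the list, tumor-bearing osteoblast replicate 1 was the highest of its group for 10 of 10 macrophage genes, against 31.5% of genes tested, and replicate 3 the lowest for 9 of 10, against 33.8%. In the tumor-free group replicate 1 was the lowest for 10 of 10, against 36.9% of genes tested. All 10 macrophage genes exceeded all 6 endothelial arrays on tumor-bearing replicate 1, 9 did on replicate 2 and 2 on replicate 3, where 20.8%, 26.7% and 28.5% of genes tested did. In tumor-free osteoblasts the counts were 6, 10 and 10 of 10 on replicates 1, 2 and 3, against 33.9%, 31.6% and 34.5%. The median SD of the 10 genes over 3 replicates was 0.193 and 0.134 in endothelial cells and 1.10 and 2.27 in osteoblasts of tumor-bearing and tumor-free mice, against 0.189, 0.173, 0.219 and 0.328 for genes tested.

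**Figure D2:**
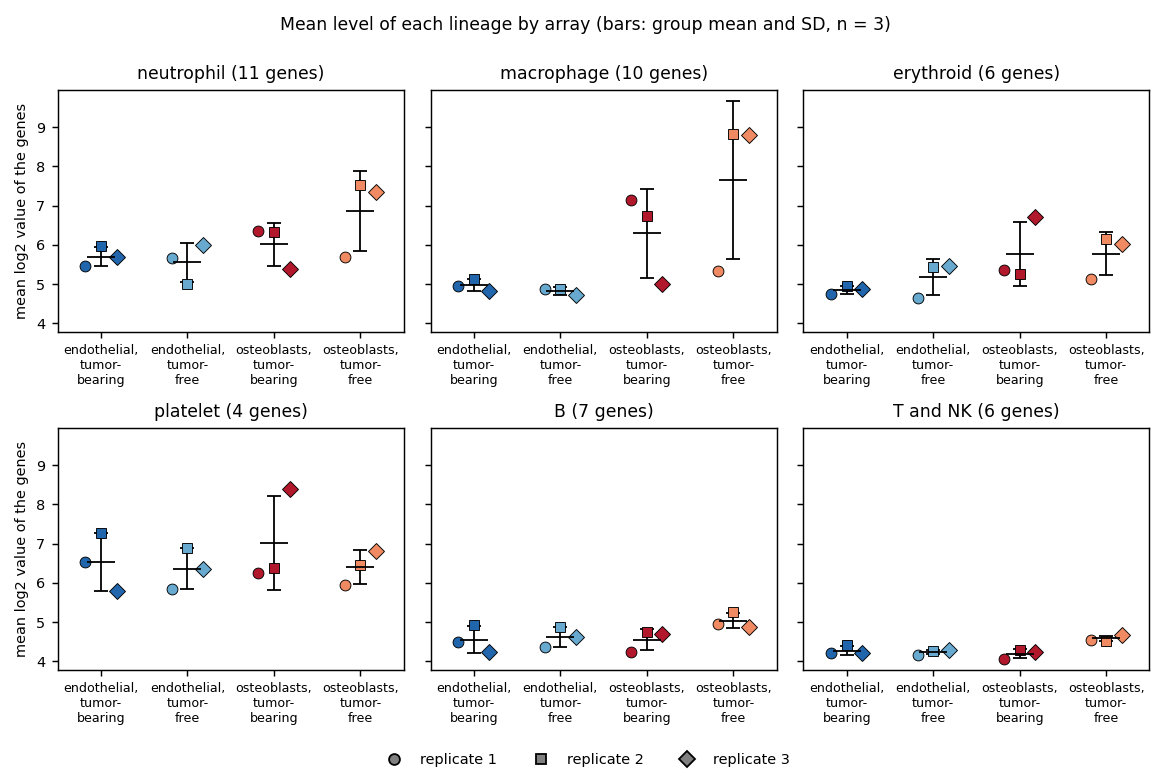
Points give the mean log2 value of each lineage's measured genes on an array, by group and replicate, and bars the group mean and SD (n = 3). Macrophage means of tumor-free osteoblasts span 5.32 to 8.81 while the endothelial means stay between 4.72 and 5.14, and the platelet mean of tumor-bearing osteoblast replicate 3 stands at 8.38.

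The promoters of genes that moved together are shown from RefSeq (GRCm38.p6), as the 250 bases before and 50 bases after the annotated start, 5′ to 3′ on the strand of the gene. RefSeq rows matched 41 of the 48 members. For the macrophage genes capitals mark GAGGAA on either strand, the core bound by PU.1, a factor that macrophages need. C1qb and C1qc, which lie next to each other and to C1qa on chromosome 4, hold 1 match each and Ctss holds 2. C1qb spans chr4:136886151-136886450 on the minus strand, C1qc chr4:136892865-136893164 on the minus strand and Ctss chr3:95526536-95526835 on the plus strand.
C1qb: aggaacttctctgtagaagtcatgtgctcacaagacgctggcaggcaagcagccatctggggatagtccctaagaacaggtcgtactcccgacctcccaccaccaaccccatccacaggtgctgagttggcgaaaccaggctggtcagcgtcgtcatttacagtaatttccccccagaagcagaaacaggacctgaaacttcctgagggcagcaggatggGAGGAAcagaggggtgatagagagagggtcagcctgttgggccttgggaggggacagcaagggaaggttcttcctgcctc
C1qc: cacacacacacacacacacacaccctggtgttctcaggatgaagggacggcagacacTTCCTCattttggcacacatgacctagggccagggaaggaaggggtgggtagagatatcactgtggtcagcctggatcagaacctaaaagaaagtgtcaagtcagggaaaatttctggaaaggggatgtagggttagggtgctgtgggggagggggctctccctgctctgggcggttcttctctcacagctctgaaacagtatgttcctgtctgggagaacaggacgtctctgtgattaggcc
Ctss: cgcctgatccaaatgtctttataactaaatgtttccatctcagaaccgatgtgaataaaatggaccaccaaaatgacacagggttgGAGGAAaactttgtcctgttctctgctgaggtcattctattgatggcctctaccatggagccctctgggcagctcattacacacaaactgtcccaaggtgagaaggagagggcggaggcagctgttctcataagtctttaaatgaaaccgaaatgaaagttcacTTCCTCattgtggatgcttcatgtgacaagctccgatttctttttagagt
The letters were found in 6 of the 7 macrophage promoters at hand, against 28.3% of 32851 mouse promoters of this length. They were also in 7 of 11 neutrophil, 3 of 4 erythroid, 3 of 6 B lineage, 3 of 6 T and NK and 2 of 6 platelet promoters and in that of Ptprc, so they did not set the macrophage genes apart from other lineages. A match describes these letters and shows no binding.

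The search for close genes, here and for the other lineages, covered tested genes and left out provisional symbols such as Gm, Rik and LOC names. Outside the list, Ms4a7 (Pearson r = 0.997), Spic (r = 0.996) and Tlr13 (r = 0.991) tracked the macrophage mean most closely over the 12 arrays. They are given as a description without a test. Ms4a7, a membrane protein of macrophages, was at 3.27, 3.49 and 3.37 (tumor-bearing) and 3.28, 3.20 and 3.18 (tumor-free) in endothelial cells, and at 6.59, 6.39 and 3.48 (tumor-bearing) and 3.98, 8.66 and 9.06 (tumor-free) in osteoblasts. Spic, the transcription factor of red pulp and bone marrow macrophages that recycle iron, was at 3.29, 3.35 and 3.38 (tumor-bearing) and 3.13, 3.28 and 3.22 (tumor-free) in endothelial cells, and at 6.46, 5.82 and 3.50 (tumor-bearing) and 3.93, 8.26 and 8.94 (tumor-free) in osteoblasts. Mrc1, the mannose receptor that macrophages and sinusoidal endothelium both use, differed from these in being high on all endothelial arrays, at 10.63 to 10.68 (tumor-bearing) and 10.85 to 11.03 (tumor-free). In osteoblasts Mrc1 was at 8.51, 8.39 and 4.60 (tumor-bearing) and 3.94, 10.47 and 10.24 (tumor-free), with the same 4 arrays high. Each listed macrophage gene followed the mean of the other 9 with an r between 0.81 and 0.99.

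Ptprc encodes CD45, the antigen that both sorts selected against. It was at 4.71, 5.07 and 4.79 in tumor-bearing and at 4.53, 5.24 and 4.92 in tumor-free endothelial samples, and at 7.03, 6.87 and 4.70 in tumor-bearing and 4.92, 8.46 and 6.41 in tumor-free osteoblasts. The 4 osteoblast arrays that were high for macrophage genes were also high for Ptprc. The difference of tumor-bearing from tumor-free osteoblasts was -0.39 ± 0.79 (SE, limma, Benjamini-Hochberg adjusted p = 0.788), and that of endothelial cells from osteoblasts in tumor-free mice was -1.70 ± 0.79 (adjusted p = 0.119). Its part in the other results was not tested.

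Neutrophil genes followed the macrophage genes in osteoblasts, but they also varied among endothelial arrays. The mean of the 11 genes was 5.46, 5.96 and 5.69 (tumor-bearing) and 5.66, 5.01 and 5.98 (tumor-free) in endothelial cells, and 6.34, 6.32 and 5.39 (tumor-bearing) and 5.68, 7.53 and 7.35 (tumor-free) in osteoblasts. S100a9, a subunit of calprotectin, was at 7.57, 9.25 and 8.73 (tumor-bearing) and 8.32, 6.35 and 8.65 (tumor-free) in endothelial cells, and at 9.65, 8.98 and 7.52 (tumor-bearing) and 9.14, 10.82 and 10.50 (tumor-free) in osteoblasts. Its partner S100a8 was at 5.79, 7.56 and 6.33 (tumor-bearing) and 7.53, 5.55 and 7.27 (tumor-free) in endothelial cells, and at 8.55, 8.10 and 5.93 (tumor-bearing) and 7.16, 9.94 and 10.18 (tumor-free) in osteoblasts. Both calprotectin genes were above the middle of the array on all 6 endothelial arrays, S100a8 only slightly so at its lowest values, and tumor-bearing osteoblast replicate 3 lay within the endothelial range for both.

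Ngp, a cathelicidin-related protein of neutrophil granules, was at 6.17, 7.78 and 8.31 (tumor-bearing) and 7.29, 5.49 and 7.71 (tumor-free) in endothelial cells, and at 7.69, 8.14 and 5.17 (tumor-bearing) and 5.62, 9.76 and 9.55 (tumor-free) in osteoblasts. Camp, the cathelicidin precursor, was at 4.95, 5.59 and 5.53 (tumor-bearing) and 5.59, 4.83 and 5.29 (tumor-free) in endothelial cells, and at 5.64, 6.11 and 5.31 (tumor-bearing) and 5.62, 8.85 and 6.78 (tumor-free) in osteoblasts. Lcn2, the siderophore-binding lipocalin of secondary granules, was at 4.38, 4.92 and 4.59 (tumor-bearing) and 4.98, 4.58 and 4.74 (tumor-free) in endothelial cells, and at 6.60, 5.36 and 5.19 (tumor-bearing) and 5.06, 6.75 and 6.98 (tumor-free) in osteoblasts. Tumor-free osteoblast replicates 2 and 3 were the highest for all 3 genes, and for Lcn2 no endothelial array reached the lowest osteoblast array.

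Ltf, or lactoferrin, ranged from 4.38 to 6.69, Retnlg, a resistin-like hormone of neutrophils, from 4.02 to 8.06, Mpo, the myeloperoxidase of primary granules, from 4.69 to 6.77, and Cd177, a neutrophil surface glycoprotein, from 5.00 to 6.08. The serine proteases of primary granules, Elane and Prtn3, stayed between 4.65 and 5.72 and between 4.57 and 5.32, below the filter. The primary granule genes Mpo, Elane and Prtn3 followed the mean of the other neutrophil genes less closely (r of 0.50, 0.51 and 0.22) than the other 8 did, which ranged from 0.57 to 0.94. In tumor-free osteoblasts replicate 1 was the lowest of the group for 9 of 11 neutrophil genes. Those outside the list with the closest course were Otulinl (r = 0.955), Cd74 (r = 0.950) and Laptm5 (r = 0.945).

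For 2 neutrophil genes the promoter is shown with capitals at TTGCNNAA on either strand, a site form bound by C/EBP factors, which drive granule genes. Ngp spans chr9:110419558-110419857 on the plus strand with 2 matches, and S100a9 spans chr3:90695672-90695971 on the minus strand with 1 match, beside S100a8.
Ngp: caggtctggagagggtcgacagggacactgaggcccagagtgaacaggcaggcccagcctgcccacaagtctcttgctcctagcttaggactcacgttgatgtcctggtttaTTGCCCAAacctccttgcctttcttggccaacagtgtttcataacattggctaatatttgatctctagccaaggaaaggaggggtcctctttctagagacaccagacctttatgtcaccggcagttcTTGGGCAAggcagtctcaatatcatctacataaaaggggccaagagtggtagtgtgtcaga
S100a9: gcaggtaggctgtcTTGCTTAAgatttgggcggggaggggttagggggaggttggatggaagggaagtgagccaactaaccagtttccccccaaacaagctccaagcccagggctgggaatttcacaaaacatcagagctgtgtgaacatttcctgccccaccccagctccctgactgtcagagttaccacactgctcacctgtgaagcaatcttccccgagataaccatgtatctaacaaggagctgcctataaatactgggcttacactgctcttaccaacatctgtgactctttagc
Such letters were found in 5 of 11 neutrophil promoters, against 10.8% of all promoters. They were also in 2 of 7 macrophage and 1 of 6 platelet promoters, and in 0 of 4 erythroid, 0 of 6 B lineage and 0 of 6 T and NK promoters.

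The platelet genes and some erythroid genes peaked on an array that was low for macrophage genes. All 4 platelet genes and 3 of 6 erythroid genes were highest there, while the other 3 erythroid genes peaked on tumor-free osteoblast replicate 2 or 3. The mean of the 4 platelet genes was 6.52, 7.27 and 5.79 (tumor-bearing) and 5.85, 6.88 and 6.37 (tumor-free) in endothelial cells, and 6.25, 6.38 and 8.38 (tumor-bearing) and 5.95, 6.47 and 6.80 (tumor-free) in osteoblasts. Tumor-bearing osteoblast replicate 3, which lay near the endothelial arrays for macrophage genes, was the highest of its group for 4 of 4 platelet and 4 of 6 erythroid genes, against 35.4% of genes tested. The erythroid mean was 4.75, 4.95 and 4.88 (tumor-bearing) and 4.64, 5.43 and 5.46 (tumor-free) in endothelial cells, and 5.36, 5.25 and 6.71 (tumor-bearing) and 5.14, 6.16 and 6.03 (tumor-free) in osteoblasts.

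Ppbp, the platelet chemokine precursor, was at 7.58, 8.42 and 6.24 (tumor-bearing) and 6.41, 8.07 and 6.66 (tumor-free) in endothelial cells, and at 5.36, 6.28 and 10.67 (tumor-bearing) and 6.91, 7.43 and 6.95 (tumor-free) in osteoblasts. Pf4, platelet factor 4, was at 6.80, 9.10 and 5.62 (tumor-bearing) and 5.90, 7.90 and 7.37 (tumor-free) in endothelial cells, and at 8.99, 7.44 and 9.63 (tumor-bearing) and 4.86, 6.76 and 8.51 (tumor-free) in osteoblasts. Replicate 3 of tumor-bearing osteoblasts was the highest of all 12 arrays for both chemokines, which are neighbours in the genome, and replicate 2 was the highest of each endothelial group. Gp9, a subunit of the von Willebrand factor receptor, ranged from 5.07 to 6.49 and Treml1, a receptor of platelet granules, from 5.58 to 6.74, both highest on that same osteoblast array.

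Car1, a carbonic anhydrase of red cell precursors, was at 5.22, 5.95 and 5.75 (tumor-bearing) and 5.34, 7.12 and 7.77 (tumor-free) in endothelial cells, and at 7.67, 5.68 and 10.91 (tumor-bearing) and 5.45, 9.39 and 8.35 (tumor-free) in osteoblasts. Rhag, a subunit of the Rh antigen complex and below the filter, was at 2.88, 2.86 and 2.87 (tumor-bearing) and 2.71, 3.33 and 3.13 (tumor-free) in endothelial cells, and at 3.20, 3.70 and 6.11 (tumor-bearing) and 3.37, 3.21 and 3.93 (tumor-free) in osteoblasts. Rhag stood out on tumor-bearing osteoblast replicate 3 alone, whereas Car1 was also high on tumor-free osteoblast replicates 2 and 3. Klf1, the erythroid transcription factor, ranged from 4.79 to 6.07 with its highest value on tumor-bearing osteoblast replicate 3, while Alas2, the first enzyme of erythroid heme synthesis, ranged from 5.08 to 7.59, Slc4a1, the band 3 anion exchanger, from 5.51 to 7.92, and Epb42, the membrane skeleton protein 4.2, from 4.24 to 4.80, each highest on a tumor-free osteoblast array.

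The promoter of Pf4, at chr5:90772185-90772484 on the plus strand, is shown with capitals at AGATAA on either strand, a form bound by GATA1, which erythroid cells and megakaryocytes both require.
Pf4: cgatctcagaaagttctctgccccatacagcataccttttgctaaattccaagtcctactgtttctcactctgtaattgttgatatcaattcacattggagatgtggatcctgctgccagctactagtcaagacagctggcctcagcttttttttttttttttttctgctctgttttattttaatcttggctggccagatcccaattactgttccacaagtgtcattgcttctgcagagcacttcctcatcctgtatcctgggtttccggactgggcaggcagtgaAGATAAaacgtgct
This form was found in 2 of 4 erythroid and 2 of 6 platelet promoters, against 11.2% of all promoters. It was also in 2 of 11 neutrophil, 1 of 6 B lineage and 1 of 6 T and NK promoters and in that of Ptprc, and in 0 of 7 macrophage promoters. Outside the list, Hemgn, a nuclear protein of erythroid precursors, tracked the erythroid mean with an r of 0.962 and was at 5.47, 5.97 and 5.23 (tumor-bearing) and 5.47, 6.27 and 6.13 (tumor-free) in endothelial cells, and at 5.86, 6.14 and 7.75 (tumor-bearing) and 5.77, 6.98 and 7.25 (tumor-free) in osteoblasts. H2bc14 (r = 0.967) and Mkrn1 (r = 0.962) were the other close genes. For the platelet mean the closest were Mcm7 (r = 0.827), Ctse (r = 0.813) and H1f5 (r = 0.807), none as close as those of the other lineages.

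The means of the lymphoid lists stayed near or below the middle of the array, while single genes such as Vpreb1 ranged widely. The mean of the 7 B lineage genes lay between 4.24 and 5.26 over the 12 arrays and that of the 6 T and NK genes between 4.07 and 4.67. Cd79b, a signalling chain of the B cell receptor, was at 5.32, 5.43 and 4.94 (tumor-bearing) and 5.17, 5.33 and 5.20 (tumor-free) in endothelial cells, and at 5.48, 5.52 and 5.64 (tumor-bearing) and 6.05, 6.89 and 6.61 (tumor-free) in osteoblasts. Vpreb3, a protein of the pre-B cell receptor assembly, was at 5.03, 5.22 and 4.91 (tumor-bearing) and 5.06, 4.87 and 4.75 (tumor-free) in endothelial cells, and at 5.01, 5.26 and 5.19 (tumor-bearing) and 5.81, 5.71 and 5.67 (tumor-free) in osteoblasts. Tumor-free osteoblasts were above every other group for Cd79b and Vpreb3, on replicate 1 as well, unlike most macrophage genes. Of all genes tested, tumor-free osteoblasts were above tumor-bearing osteoblasts without overlap for 12.3%, and above tumor-free endothelial cells for 24.2%. Vpreb3 had passed the filter through tumor-free osteoblast arrays only.

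Vpreb1, which forms the surrogate light chain with Igll1, was at 5.98, 7.12 and 4.70 (tumor-bearing) and 4.80, 7.92 and 7.01 (tumor-free) in endothelial cells, and at 4.37, 6.49 and 5.53 (tumor-bearing) and 5.72, 6.01 and 5.24 (tumor-free) in osteoblasts. It was the B lineage gene that varied most, and its 3 highest arrays were endothelial. Its neighbour and partner Igll1 ranged from 4.64 to 5.64, Cd79a, the other signalling chain, from 2.63 to 4.45, and the recombination genes Rag1 and Dntt from 3.97 to 4.49 and from 3.25 to 3.97.

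Cd3e, a chain of the T cell receptor complex, was at 5.31, 5.38 and 5.07 (tumor-bearing) and 5.10, 5.02 and 5.21 (tumor-free) in endothelial cells, and at 5.10, 5.31 and 5.36 (tumor-bearing) and 5.53, 5.61 and 5.64 (tumor-free) in osteoblasts. Ncr1, the NK receptor NKp46 and below the filter, was at 3.01, 3.78 and 3.38 (tumor-bearing) and 3.26, 3.23 and 3.17 (tumor-free) in endothelial cells, and at 2.90, 3.27 and 3.38 (tumor-bearing) and 3.73, 3.69 and 3.82 (tumor-free) in osteoblasts. Nkg7, a cytotoxic granule membrane protein, was at 4.25, 4.47 and 4.28 (tumor-bearing) and 4.25, 4.53 and 4.73 (tumor-free) in endothelial cells, and at 4.32, 4.45 and 4.44 (tumor-bearing) and 4.93, 4.75 and 4.99 (tumor-free) in osteoblasts. The highest group mean of all 3 was that of tumor-free osteoblasts, and for Ncr1 the groups overlapped through an endothelial array. Prf1, or perforin, ranged from 5.46 to 6.11, Gzma, a granzyme, from 3.34 to 3.72 and Cd3g, a further T cell receptor chain, from 3.14 to 3.78.

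The 3 genes closest to the T and NK mean were Fezf2 (r = 0.972), Cdx1 (r = 0.970) and Gcnt7 (r = 0.958), and those closest to the B mean Fancg (r = 0.943), Dhrsx (r = 0.934) and Htr1f (r = 0.926). None of these 6 was in a hematopoietic list used here. The dim genes as a body were also higher on tumor-free osteoblast arrays: of 7507 genes below the filter 6572 (87.5%) were lower in tumor-bearing than in tumor-free osteoblasts, with a median of -0.23, and 6956 (92.7%) were lower in endothelial cells than in osteoblasts of tumor-free mice, with a median of -0.32. The T and NK members had medians of -0.38 and -0.32 in these comparisons, and the B members -0.39 and -0.41. Quantile normalization brought the dim genes to -0.14 and -0.13, the T and NK members to -0.34 and -0.21 and the B members to -0.33 and -0.21. The most negative 5% of dim genes lay below -0.54 and -0.67.

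**Figure D3:**
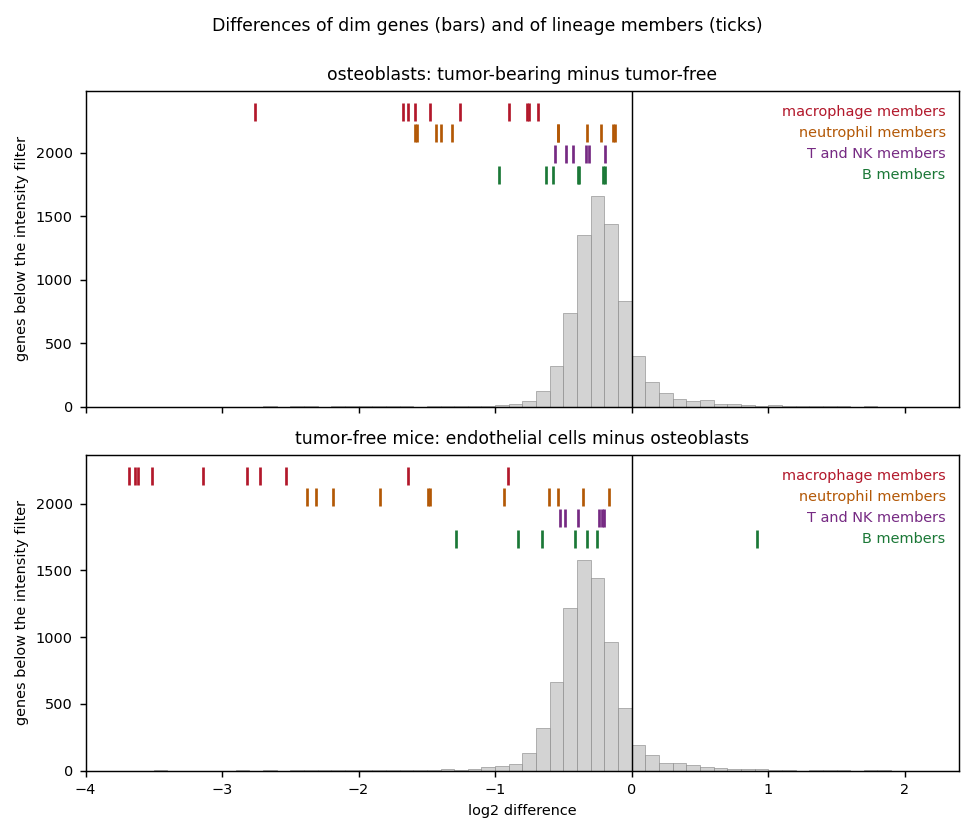
Grey bars count the 7507 genes below the intensity filter by their log2 difference, for tumor-bearing minus tumor-free osteoblasts and for endothelial cells minus osteoblasts of tumor-free mice, and ticks mark members of 4 lineages. The bars centre at -0.23 and -0.32, T and NK ticks fall among them, and most macrophage ticks lie further left.

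The tumor comparison asked whether these transcripts differed between cells of bones with and without metastases. In osteoblasts 3 of the 33 members tested were lower in tumor-bearing mice and 0 were higher, where 71 genes of the 12430 tested were lower (0.571%) and 499 higher (4.01%). Of these 3 members, Wfdc17 and Vpreb3 had entered the test through the tumor-free osteoblast arrays alone, the group in which they were high. With genes of that kind left out, 1 of 31 members was lower, Cd79b, where 58 of 12376 genes were (0.469%). Wfdc17 differed by -2.76 ± 0.63 (SE), 6.77-fold lower in tumor-bearing mice (limma, adjusted p = 0.0366). For Cd79b the difference was -0.97 ± 0.21, or 1.96-fold lower (adjusted p = 0.0297), and for Vpreb3 it was -0.57 ± 0.14, or 1.49-fold lower (adjusted p = 0.0481). For all 3 genes the tumor-bearing arrays lay below the tumor-free arrays without overlap, which genes picked by a small p tend to show. Cd3e and Prf1, not called, were also lower without overlap, and of all genes tested 12.3% were. The Vpreb3 difference is close to the -0.54 below which the most negative 5% of dim genes lay.

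The other macrophage genes had negative differences that did not pass the threshold, with a list median of -1.37 over 10 genes against -0.14 over all genes. C1qc differed by -1.59 ± 1.13 (limma, adjusted p = 0.401), Ctss by -0.90 ± 1.19 (adjusted p = 0.669) and Lyz2 by -0.75 ± 1.14 (adjusted p = 0.711). Neutrophil genes had a median of -0.54 and 0 of 9 tested were called, with S100a8 at -1.57 ± 0.92 (adjusted p = 0.313) and S100a9 at -1.43 ± 0.73 (adjusted p = 0.252). The erythroid and platelet medians were 0.10 and 0.27, and 0 of 7 genes tested were called. Pf4 differed by 1.97 ± 1.04 (adjusted p = 0.267), with a 95% interval of -0.33 to 4.27. Of the 33 members 8 had an unadjusted p under 0.05, a share close to the 24.4% of all genes tested.

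Single arrays decided these counts. Without tumor-free replicate 1 the fit called 12 members lower in tumor-bearing osteoblasts, 8 of them macrophage genes (Cd68, Csf1r, Adgre1, C1qa, C1qb, C1qc, Fcgr3 and Wfdc17) beside Camp, Retnlg, Slc4a1 and Cd79b, and the macrophage median was -2.65. In that fit 400 of all genes tested were lower (3.22%), in place of 71. The filter was not redone there. Csf1r, Adgre1, C1qb and C1qc had passed it through osteoblast arrays alone, and Wfdc17 through tumor-free osteoblast arrays alone, replicate 1 among them. Without tumor-free replicate 2 or 3 it was -0.57 or -0.79 with 0 macrophage genes called, and without tumor-bearing replicate 3 it was -0.72, also with 0. No member was called without any of the 3 tumor-bearing osteoblast arrays in turn, tumor-free osteoblast replicate 3 or tumor-bearing endothelial replicate 1. Wfdc17 was called in 1 of 12 fits that left out an array, Cd79b in 7 and Vpreb3 in 0. Across all 19 other settings these calls kept their direction, with the adjusted p between 0.00167 and 0.239 for Wfdc17, 0.00218 and 0.196 for Cd79b and 0.0361 and 0.239 for Vpreb3.

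In endothelial cells 0 of 33 members passed the threshold between tumor-bearing and tumor-free mice, and 0 had an unadjusted p under 0.05, where 3 of all genes tested passed (0.0241%) and 6.93% had an unadjusted p under 0.05. The median difference of the members was -0.0028, with 22 of 45 positive, and the macrophage median was 0.05. The widest differences were those of Car1, at -1.11 ± 1.26 (limma, adjusted p = 0.999), and S100a9, at 0.74 ± 0.73 (adjusted p = 0.994). Cd79b differed by -0.0028 ± 0.21, with a 95% interval of -0.46 to 0.46. When the tumor difference of endothelial cells was set against that of osteoblasts, 0 of 33 members passed and 5 had an unadjusted p under 0.05, where 26 genes passed (0.209%) and 16% had an unadjusted p under 0.05, a share close to that of the members. The differences were 0.73 ± 0.20 for Vpreb3 (limma, adjusted p = 0.151), 2.97 ± 0.89 for Wfdc17 (adjusted p = 0.175) and 0.97 ± 0.29 for Cd79b (adjusted p = 0.175). Without tumor-free osteoblast replicate 1 this comparison called Retnlg, C1qb, Wfdc17 and Cd79b, where 545 genes passed (4.38%). The filter was not redone there either, and C1qb and Wfdc17 had passed it through osteoblast arrays alone.

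**Figure D4:**
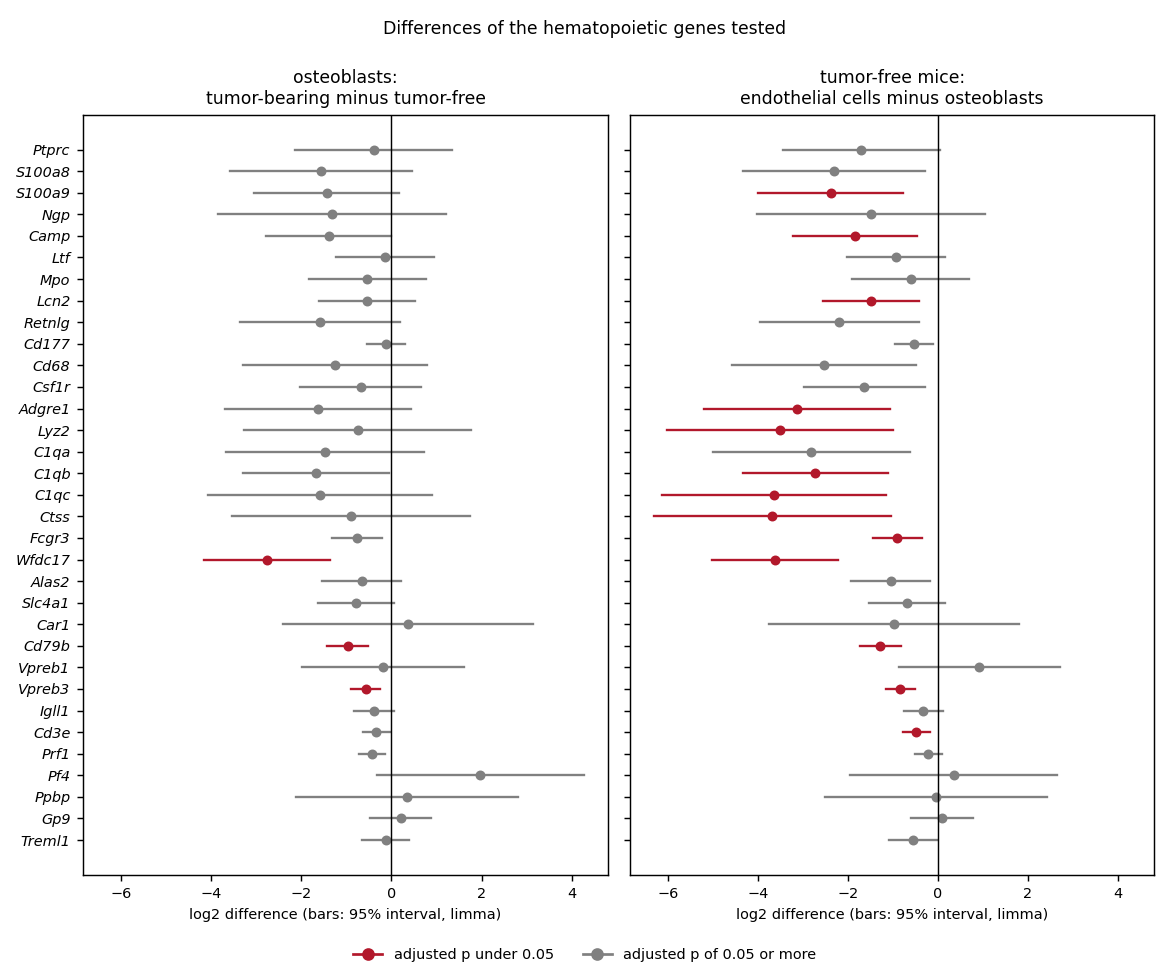
Points give the log2 difference of the 33 members tested with its 95% interval from limma, for tumor-bearing minus tumor-free osteoblasts on the left and endothelial cells minus osteoblasts of tumor-free mice on the right. Red marks an adjusted p under 0.05, for 3 genes on the left and 13 on the right, all of them negative.

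Between the cell types in tumor-free mice, 13 of 33 members were lower in endothelial cells than in osteoblasts and 0 were higher, where 12.7% of genes tested were lower and 18.2% higher. Of the 13 members 6 (Lcn2, Adgre1, C1qb, C1qc, Wfdc17 and Vpreb3) had entered the test through osteoblast arrays alone, the cell type in which they were high. With genes of that kind left out, 7 of 25 members were lower, where 10.9% of 11964 genes were. This count is not free of the filter. Lyz2 and Cd3e exceeded the array median on 2 tumor-bearing endothelial arrays and Fcgr3 on 1 tumor-free endothelial array. These genes thus also needed osteoblast arrays to reach the 3 arrays of the filter. After median centring of the arrays, which moved the median of all genes to -0.05 against -0.21 as deposited, 785 genes were lower and 2852 higher, in place of 1584 and 2266, and 7 members were lower, where 6.32% of genes were. In all 13 the groups did not overlap, which genes picked by a small p tend to show. Cd177 and Treml1, not called, were also lower without overlap, and of all genes tested 24.2% were. Of the macrophage list 7 of 10 were lower. Ctss differed by -3.68 ± 1.19 (SE), 12.8-fold lower in endothelial cells (limma, adjusted p = 0.0391), C1qc by -3.64 ± 1.13 or 12.5-fold (adjusted p = 0.0336), Wfdc17 by -3.61 ± 0.63 or 12.2-fold (adjusted p = 0.00227) and Lyz2 by -3.51 ± 1.14 or 11.4-fold (adjusted p = 0.0391). Adgre1 was 8.80-fold lower (adjusted p = 0.029), C1qb 6.60-fold (adjusted p = 0.019) and Fcgr3 1.88-fold (adjusted p = 0.0201). The median of the 10 genes was -2.98, against -0.21 over all genes.

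Among the 9 neutrophil genes tested 3 were lower in endothelial cells, by -2.38 ± 0.73 or 5.21-fold for S100a9 (limma, adjusted p = 0.0322), -1.85 ± 0.63 or 3.59-fold for Camp (adjusted p = 0.0455) and -1.49 ± 0.48 or 2.81-fold for Lcn2 (adjusted p = 0.0386). The lymphoid calls were Cd79b, by -1.28 ± 0.21 or 2.43-fold (adjusted p = 0.00146), Vpreb3, by -0.84 ± 0.14 or 1.78-fold (adjusted p = 0.00201), and Cd3e, by -0.49 ± 0.14 or 1.40-fold (adjusted p = 0.0231). The Cd3e difference is less negative than the -0.67 below which the most negative 5% of dim genes lay. Erythroid genes had a median of -0.57 and platelet genes of 0.02, and 0 of 7 tested were called. Pf4 differed by 0.35 ± 1.04 (adjusted p = 0.814) and Ppbp by -0.05 ± 1.12 (adjusted p = 0.978).

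These counts too rested on single arrays. Without tumor-free osteoblast replicate 1 the same fit called 23 members lower in endothelial cells, among them all 10 macrophage genes and Ptprc, with a macrophage median of -4.32, where 11.7% of genes tested were lower. Without tumor-free osteoblast replicate 2 it called 5 members (12% of genes tested) and without replicate 3 it called 4 (8.92% of genes tested), with macrophage medians of -2.26 and -2.47. Leaving out tumor-free endothelial replicate 1, 2 or 3 left 5, 4 and 5 calls, where 6.4%, 5.56% and 5.91% of genes tested were lower. Wfdc17, Cd79b and Vpreb3 were called in all 12 fits that left out an array, C1qb in 8, Adgre1 and C1qc in 7, Ctss and Lyz2 in 4, Fcgr3, S100a9 and Cd3e in 9, Lcn2 in 4 and Camp in 1. The filter was not redone in these fits. Wfdc17, Vpreb3, C1qb, Adgre1, C1qc and Lcn2 thus stayed in, having passed it through osteoblast arrays alone.

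In tumor-bearing mice 0 of 33 members differed between endothelial cells and osteoblasts at the threshold, with 1 unadjusted p under 0.05, where 14.9% of genes tested passed and 25.8% had an unadjusted p under 0.05. The macrophage median was -1.23 with 10 of 10 negative and the neutrophil median -0.24. C1qc differed by -2.09 ± 1.13 (limma, adjusted p = 0.292) and Lyz2 by -2.44 ± 1.14 (adjusted p = 0.21), which overlapped through osteoblast replicate 3. C1qc, C1qb, Csf1r, Lcn2, Slc4a1 and Cd79b were lower in endothelial cells without overlap, as were 16.3% of genes tested. Prf1 was higher without overlap, and the share of all genes in that direction is not given here. Car1 differed by -2.45 ± 1.26 (adjusted p = 0.261). With array weights 9 members passed, all lower in endothelial cells: Ptprc, Lcn2 and 7 macrophage genes. In that setting 1797 of all genes tested were lower (14.5%) and 1936 higher (15.6%), so about as large a share of all genes passed as of the members when both directions are counted. Lcn2 had entered the test through osteoblast arrays alone, as had Csf1r, Adgre1, C1qb, C1qc and Wfdc17 of the macrophage list. The 9 were not counted again without such genes. The comparisons in tumor-bearing and tumor-free mice use different arrays, and whether they differ is the comparison of tumor differences given above.

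Further markers of the same lineages were counted in the same fits. In osteoblasts 0 of the 8 pan-leukocyte, 7 neutrophil, 10 macrophage, 9 erythroid, 3 B lineage, 2 T and NK and 6 platelet genes tested passed the threshold with tumor, and 3, 2, 1, 0, 0, 1 and 0 of them had an unadjusted p under 0.05, where 24.4% of genes tested had one. In tumor-free mice 5 of the 8 pan-leukocyte genes were lower in endothelial cells than in osteoblasts, where 12.7% of genes tested were lower and 18.2% higher. Among them was Laptm5, a lysosomal membrane protein, with 4.54, 4.47 and 4.82 in endothelial cells and 4.80, 9.68 and 8.58 in osteoblasts. Of 10 other macrophage genes 3 were lower, Cx3cr1, Ms4a7 and Mpeg1, and 2 were higher, Cd14 and Lgmn. In the same comparison 2 of 7 neutrophil, 1 of 3 B lineage and 1 of 2 T and NK genes were lower, and 0 were higher. For erythroid genes 0 of 9 were called, and of 6 platelet genes 1 was lower and 1 higher. Laptm5 and Ms4a7 exceeded the array median on osteoblast arrays only, so both entered the test through the cell type in which they were high. The counts of further markers were not repeated without genes of that kind. Cd163, the hemoglobin scavenger receptor and below the filter, was at 4.05, 4.21 and 4.24 (tumor-bearing) and 4.22, 4.19 and 4.11 (tumor-free) in endothelial cells, and at 4.74, 5.14 and 4.02 (tumor-bearing) and 4.84, 8.95 and 7.30 (tumor-free) in osteoblasts. Hp, the haptoglobin gene that neutrophils and mesenchymal cells both use, was lower in endothelial cells in both states of the mice, with 8.19, 8.05 and 8.30 against 11.03, 10.01 and 9.54 in tumor-bearing mice.

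Means of other gene lists also differed among the osteoblast arrays. The mean of 12 immediate early genes was 9.78, 9.87 and 9.74 in osteoblasts of tumor-bearing mice, against 9.19, 8.63 and 8.07 in those of tumor-free mice, and the mean of 10 cartilage genes was 9.80, 10.49 and 10.44, against 9.85, 8.70 and 6.89, with 8 to 10 of the 10 above the array median. Both were lowest on tumor-free replicates 2 and 3, which were highest for macrophage genes, but among tumor-bearing arrays neither mean set replicate 3 apart from both others. The mean of 7 osteoblast genes was 9.82, 9.63 and 9.54, against 8.82, 10.26 and 9.87, and that of 10 endothelial genes 5.25, 5.41 and 4.95, against 5.32, 6.14 and 5.53. The mean of 8 osteoclast genes was 5.26, 5.29 and 4.98 in tumor-bearing mice, against 5.13, 5.83 and 6.07 in tumor-free mice, a narrower range than that of the macrophage mean. The part of these measures in the differences above was not tested.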

How the data were processed

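Per the labels' protocols, a Pico Pure kit yielded the RNA, which SPIA amplified as cDNA. The deposited table holds log2 values of 34760 probe sets on 12 arrays, from 1.55 to 12.9, made by the authors with affy, per the submitters' processing notes. Background correction, normalization and the affy version were not given in the sources used here, and signal over background was not used. Groups came from the sample titles. No pair of the 66 was identical (0 pairs), and the closest correlated at 0.97.

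The annotation of the array gives 1 symbol to 21640 probe sets, several to 1321 and none to 11799 that it does not list. By Entrez number 21553 of the first kind were found in the gene table, and 0 changed symbol. The probe set with the highest mean stood for a gene. Tested genes were those above the array-wide median of probe sets on 3 or more of the 12 arrays (12430 genes, 62.3%). Tests used limma 3.58.1 in R 4.3.3 with 1 mean per group over all 12 arrays, 8 residual and 2.89 prior degrees of freedom, two-sided, with Benjamini-Hochberg adjustment across the tested genes and a threshold of 0.05. The fits were tested on simulated data. Promoters are RefSeq's, for GRCm38.p6.

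The members, lists and settings were chosen with earlier results of these data known. Array values are given for Ptprc, for members past the threshold in any comparison and for the 2 of each lineage with the largest SD over the arrays, and other members by their range. Mrc1, Cd163 and Hemgn were named after their values were seen. Same-numbered arrays did not deviate together (r from -0.26 to 0.108), so the numbers were not taken as pairs.

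Alternatives were a replicate block, quantile normalization, median centring, filters at none and at the 70th percentile, probe sets averaged per gene, array weights, a fit of only the groups compared, and leaving out each array. Counts without genes that exceeded the array median only in the group in which they were high were added after seeing the data.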

Additional observations from a re-analysis of the deposited data

Results flagged for a closer look

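The tumor difference of endothelial cells was tested against that of osteoblasts, and 26 genes passed the threshold in that comparison (limma, adjusted p under 0.05), 4 with a positive and 22 with a negative difference of the differences. No member of the hematopoietic lists was among them.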

How the results depend on the processing

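For tumor-bearing against tumor-free osteoblasts, 570 genes were called as reported, against 955 with no filter and 0 with only the groups compared. The 3 members called became 0 with the filter at the 70th percentile and 0 with only the groups compared. That filter tested 17 members but not these 3, so it could not call them. Leaving out an array gave 111 to 1573 genes and 0 to 12 members. For endothelial cells the 3 genes called with tumor became 0 with quantile normalization, median centring, no filter and the filter at the 70th percentile, 7 with the mean over probe sets and 449 with array weights, and 0 to 61 without an array, while members stayed at 0 throughout. Between cell types in tumor-free mice, 3850 genes became 6564 with no filter and 1911 with only the groups compared, and 2266 to 3921 without an array. The 13 members became 7 with median centring, 6 with the filter at the 70th percentile and 3 with only the groups compared, and 4 to 23 without an array. Of the 13, the filter at the 70th percentile tested only C1qc, Ctss, Lcn2, Lyz2 and S100a9. In tumor-bearing mice 1854 genes became 3733 with array weights and 1325 to 2376 without an array, and 0 members became 9 with array weights and 0 to 4 without an array. In the comparison of tumor differences 26 genes became 14 with quantile normalization, 96 with median centring, 11 with the filter at the 70th percentile, 41 with the mean over probe sets and 324 with array weights, and 0 to 545 without an array, and 0 members became 2 with array weights and 0 to 4 without an array. With genes left out that exceeded the array median only in their high group, the members called became 1 in osteoblasts with tumor. Between cell types in tumor-free mice they became 7, of which Lyz2, Cd3e and Fcgr3 still needed osteoblast arrays to pass the filter. That setting was chosen after seeing the data. The cause of these moves was not tested, beyond the smaller number of genes or arrays that a stricter filter or a left-out array entails.

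With the replicate number as a block the calls were 349 genes and 1 member (Cd79b) for osteoblasts with tumor, 0 genes for endothelial cells with tumor and 0 in the comparison of tumor differences, and the arrays share only a number.

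Of 309 values of called members under other settings, 191 passed the threshold, 118 did not and 0 reversed. Of 2878 values not past it, 104 had the other sign. The 3 arrays per group limit every interval, and where a lone pair of arrays remains their spread is taken from all groups.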
